A study of Homo sapiens with 2 samples.

Results

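The 10 genes described here code for Notch receptors (NOTCH1, NOTCH2, NOTCH3), Notch ligands (JAG1, JAG2, DLL1) and HES and HEY repressors (HES1, HES2, HEY1, HEYL). Notch signalling switches on some genes of the HES and HEY families. They were chosen by gene name, and all 10 were found among the 20263 genes listed for each library. Expression was measured by RNA sequencing in Cal-27, an established line from an oral squamous cell carcinoma of the tongue. One library came from cells with a stably transduced scrambled control shRNA (sh-scramble) and the other from cells with a stably transduced shRNA against the kinase gene HIPK2 (sh-HIPK2), grown alike. Each group held 1 library and the labels name 1 construct for each, so differences have no replicate check, no test could be run, and the values set 2 libraries side by side rather than 2 conditions.

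Notch receptors are single-pass membrane proteins that bind ligands of the Jagged and Delta-like families on neighbouring cells. Ligand pulling exposes the receptor to a sheddase and then to gamma-secretase, which frees the intracellular domain. That domain enters the nucleus, joins the DNA-binding protein RBPJ and a Mastermind coactivator, and turns on targets, some HES and HEY genes among them. The HES and HEY products are basic helix-loop-helix repressors. In stratified squamous epithelium Notch is known to promote the exit of basal cells into differentiation, and NOTCH1 is known to be mutated in squamous carcinomas.

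Promoter windows are shown for 3 genes because they belong to HEYL and NOTCH3, the members with the largest ratios between the libraries, and to HES1, the classical Notch target, which differed little. Each runs from 250 bases before to 50 bases after the gene's start, 5′ to 3′ on the gene's strand, and comes from RefSeq on GRCh38.p14. Capitals mark matches to TGGGAA, the core of the RBPJ binding site, on either strand, so that a match on the other strand reads TTCCCA.
HEYL, chr1:39639594-39639893, minus strand: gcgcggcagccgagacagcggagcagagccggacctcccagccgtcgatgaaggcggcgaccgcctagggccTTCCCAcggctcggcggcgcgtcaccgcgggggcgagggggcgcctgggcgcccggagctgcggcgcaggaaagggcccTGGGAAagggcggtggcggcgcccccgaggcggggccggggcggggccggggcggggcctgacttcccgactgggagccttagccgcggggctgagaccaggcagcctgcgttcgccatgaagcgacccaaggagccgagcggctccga
NOTCH3, chr19:15200946-15201245, minus strand: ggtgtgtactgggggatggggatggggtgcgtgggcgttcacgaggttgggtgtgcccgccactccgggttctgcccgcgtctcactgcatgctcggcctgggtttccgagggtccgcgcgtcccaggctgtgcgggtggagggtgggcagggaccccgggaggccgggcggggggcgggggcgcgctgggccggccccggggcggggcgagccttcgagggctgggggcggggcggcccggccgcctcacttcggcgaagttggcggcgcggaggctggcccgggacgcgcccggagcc
HES1, chr3:194135898-194136197, plus strand: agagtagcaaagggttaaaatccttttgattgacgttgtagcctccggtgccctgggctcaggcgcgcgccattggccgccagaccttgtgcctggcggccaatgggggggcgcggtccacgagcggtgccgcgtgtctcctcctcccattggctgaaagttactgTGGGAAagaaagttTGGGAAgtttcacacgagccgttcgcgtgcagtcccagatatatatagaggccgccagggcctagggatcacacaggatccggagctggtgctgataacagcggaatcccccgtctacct

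The core was present 2 times in the HEYL window, with first bases at -178 and -99 from the start, on opposite strands. It was also present 2 times in the HES1 window, at -84 and -70, both on the gene's strand. The NOTCH3 window held none, and neither did the windows of NOTCH1, NOTCH2, JAG1, JAG2 and HES2. RefSeq windows were matched for 8 of the 10 members, all but DLL1 and HEY1. Of 34943 promoter windows of the same length, 24.0% held at least 1 core and 3.79% held 2 or more. The N-box CACNAG, a sequence that HES proteins bind, was found on either strand in the windows of HES1 (4 matches), NOTCH1 (2) and NOTCH2, NOTCH3 and HES2 (1 each), and in 38.0% of all windows. The E-box CACGTG was found in none of the 8 windows and in 7.23% of all. RefSeq starts HEYL 302 bases and HES2 4751 bases downstream of the gene's start in the deposited files, so each window describes the RefSeq start only. A match is a description of letters and no measurement of binding.

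The libraries held 28064923 counts (sh-scramble) and 26450251 counts (sh-HIPK2). The targeted gene HIPK2 did not settle the label. By counts it was higher under sh-HIPK2 (110 and 218), a CPM ratio of 2.01 (1.59 to 2.55). By the authors' deposited TPM it was lower (1.63 and 0.873). The units part because the transcript length behind the TPM, described below, differed between the libraries. For HIPK2 it was 3445 bases under sh-scramble and 13828 bases under sh-HIPK2, 4.01 times longer. The sample is therefore called the library labelled sh-HIPK2. All 8 squamous epithelial markers checked were expressed in both libraries, with KRT5 at 2766 and 2554 CPM, where CPM is the count per 1e+06 counts after TMM scaling. Of these markers KRT14 and CDH1 had log2 ratios of -2.26 and -1.07. Whether these markers have a part in any Notch difference was not tested.

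The receptors were all higher in the library labelled sh-HIPK2, and NOTCH3 stood out. The ligands JAG1, JAG2 and DLL1 were all slightly lower, at ratios of 0.836 to 0.874. Among the HES and HEY genes, HEYL was many times higher from a very low level, HES2 was lower, HES1 was slightly lower and HEY1 was scarce in both libraries. Of the 10 members, 9 were expressed, meaning that at least 1 library reached 1 CPM, and HEY1 missed that level. HEYL passed it through the library labelled sh-HIPK2 alone.

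By a rule of size, a log2 ratio of (CPM + 1) of at least 1 or at most -1, 2 of the 9 expressed members (NOTCH3 and HEYL) were past 2-fold higher and 0 were past 2-fold lower. Over all 11813 expressed genes the same rule called 3.26% higher and 2.87% lower, 6.13% together. The expressed members had a median log2 ratio of -0.19, beside 0.0 over every expressed gene. In the authors' deposited TPM the same 2 members were past 2-fold higher, beside 2.69% of expressed genes higher and 4.9% in either direction. At 1.5-fold the count was 4 higher (NOTCH1, NOTCH2, NOTCH3, HEYL) and 1 lower (HES2), with NOTCH2 only narrowly past. By that rule 10.6% of all expressed genes were higher and 9.96% lower, 20.6% in all. The 95% counting interval of the CPM ratio lay above 1 for 4 members, below 1 for 5 and held 1 for HEY1. That interval lay above 1 for 32.7% and below 1 for 34.6% of all expressed genes, 67.4% in all, so at this depth an interval that leaves out 1 is common. Intervals here cover counting error only, not the spread between cultures.

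**Figure D1:**
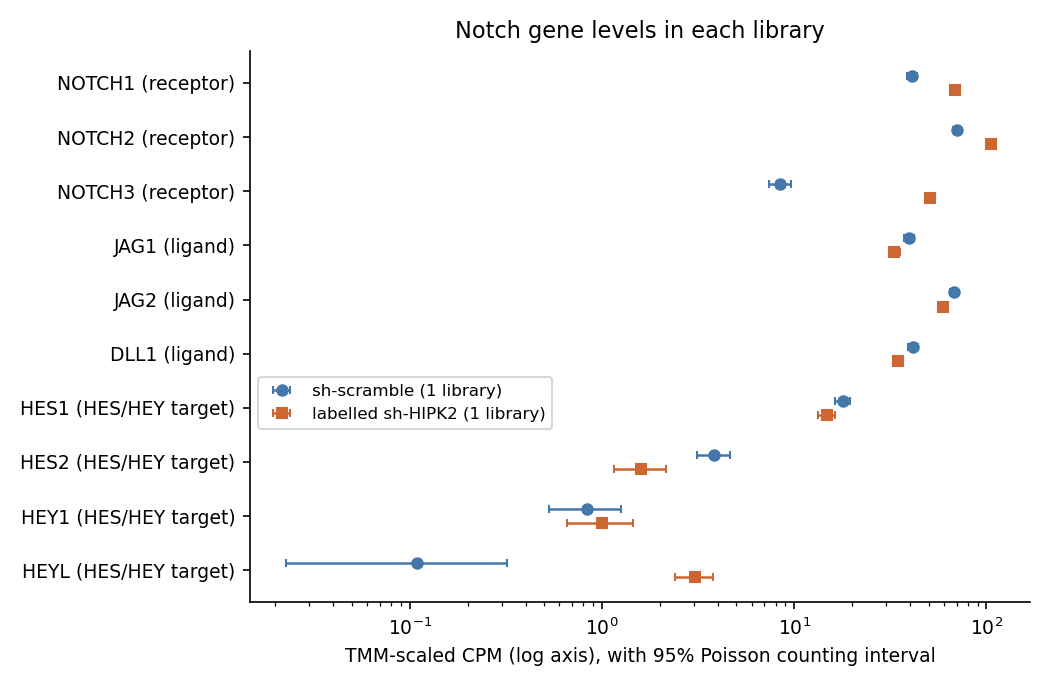
TMM-scaled CPM of the 10 genes on a log axis, with circles for the sh-scramble library, squares for the library labelled sh-HIPK2 and bars for 95% Poisson counting intervals. The squares lie to the right of the circles for NOTCH1, NOTCH2, NOTCH3 and HEYL, and the intervals of HEY1 overlap.

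NOTCH3 (ENSG00000074181, chromosome 19, 15159038 to 15200981, minus strand, GRCh38) codes for a receptor best known from vascular smooth muscle and also made in epithelia. It had 231 counts under sh-scramble and 1380 under sh-HIPK2, or 8.42 CPM (95% interval 7.37 to 9.58) against 51.0 CPM (48.3 to 53.8). The ratio was 6.06 (5.26 to 6.99). Only 34 of the 11813 expressed genes had a higher log2 ratio than the 2.46 of NOTCH3. In the authors' deposited TPM, which divides by transcript length, the gene went from 2.25 to 9.90, a ratio of 4.41. Both units put the library labelled sh-HIPK2 far above sh-scramble, and they differ in how far.

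NOTCH1 (ENSG00000148400, chromosome 9, 136494444 to 136545862, minus strand), the main Notch receptor of squamous epithelium, had 1126 and 1853 counts. Its level was 41.0 CPM (38.7 to 43.5) under sh-scramble and 68.5 CPM (65.4 to 71.7) under sh-HIPK2, 1.67 times higher (1.55 to 1.80). The TPM ratio of NOTCH1 was 1.79. This receptor was thus higher in both units but stayed under 2-fold.

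NOTCH2 (ENSG00000134250, chromosome 1, 119911553 to 120069626, minus strand), the receptor with most counts in both libraries, had 1927 and 2866 counts. It went from 70.2 CPM (67.1 to 73.5) to 105.9 CPM (102 to 110), a ratio of 1.51 (1.42 to 1.60), and its TPM ratio was 1.61. NOTCH2 has human copies of its first exons that can exchange reads with it, so its value is uncertain. The copy NOTCH2NL had 277 and 183 counts, a ratio of 0.670 (0.553 to 0.810), against the direction of NOTCH2. AC239799.1, a gene that shares exons with NOTCH2NL, had 4 and 7 counts. Summed over the 3 genes, counts were 2208 and 3056 and the ratio was 1.40 (1.33 to 1.48), so NOTCH2 kept its direction but left the 1.5-fold group. NOTCH2 alone was in that group only narrowly, at a log2 ratio of 0.586. It also fell out with DESeq2 size factors (0.574) or a pseudocount of 5 CPM (0.56).

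NOTCH4, a receptor best known from endothelium and not among the 10 members, had 5 and 12 counts and was not expressed by the 1 CPM rule. The 4 receptors together had a summed TPM of 17.1 under sh-scramble and 34.9 under sh-HIPK2, 2.04 times higher. NOTCH3 made up 13.1% of that sum under sh-scramble and 28.3% under sh-HIPK2. By counts its share of the receptors was 7.02% (exact 95% binomial interval 6.17 to 7.95) and 22.6% (21.5 to 23.7). The share of NOTCH2 by TPM went from 50.8% to 40.0% and that of NOTCH1 from 35.9% to 31.4%, although the TPM of each was higher. The receptor pool of the library labelled sh-HIPK2 was therefore both larger and richer in NOTCH3.

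NOTCH3 is a known marker of mural cells, the smooth muscle cells and pericytes of vessels. Of 8 mural markers, 3 were expressed (PDGFRB, ACTA2, CSPG4), and the list summed to 6.89 CPM under sh-scramble and 9.57 CPM under sh-HIPK2. The 3 expressed markers were all higher under sh-HIPK2. PDGFRB had 44 and 73 counts, ACTA2 101 and 135, and CSPG4 23 and 37. Their CPM ratios were 1.68, 1.36 and 1.63, and the counting interval of CSPG4 held 1 (0.944 to 2.87). MYH11, not expressed by the 1 CPM rule, was lower, with 17 and 14 counts. CNN1 and KCNJ8 had 0 counts in both libraries, and RGS5 and ABCC9 had 2 counts each under sh-scramble and 0 under sh-HIPK2. Of 7 endothelial markers 2 were expressed, summing to 56.1 and 28.6 CPM over the list, nearly all of it CDH5 at 55.2 and 27.3 CPM, while PECAM1, KDR, TEK and TIE1 had 0 counts in both libraries. Of 7 fibroblast markers 2 were expressed, summing to 16.5 and 18.8 CPM over the list, with COL1A1 at 9.59 and 12.7 CPM and DCN, PDGFRA and FAP at 0 counts in both libraries. Of 6 leukocyte markers 3 were expressed, CD68 at 23.1 and 20.6 CPM, CD14 at 4.96 and 3.25 CPM and ITGAM at 1.57 and 2.03 CPM, while PTPRC and CD3E had 0 counts in both libraries. The part of these markers in the receptor differences was not tested. In bulk RNA a change in the number of cells that express a gene and a change in RNA per cell cannot be told apart.

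Among the ligands, JAG2 (ENSG00000184916, chromosome 14, 105140981 to 105168824, minus strand), a Jagged family ligand, had 1859 and 1603 counts. It was at 67.8 CPM (64.7 to 70.9) under sh-scramble and 59.2 CPM (56.4 to 62.2) under sh-HIPK2, a ratio of 0.874 (0.817 to 0.935). DLL1 (ENSG00000198719, chromosome 6, 170282206 to 170306565, minus strand), a Delta-like ligand, had 1138 and 938 counts, at 41.5 and 34.7 CPM, with a ratio of 0.836 (0.766 to 0.912). JAG1 (ENSG00000101384, chromosome 20, 10637684 to 10674107, minus strand), the other Jagged ligand, had 1082 and 896 counts, at 39.4 and 33.1 CPM, with a ratio of 0.840 (0.768 to 0.918). All 3 ligands were thus lower by a small and similar amount, outside counting error but far under 2-fold. The TPM differences were smaller still, with ratios of 0.863 for JAG1, 0.914 for DLL1 and 0.939 for JAG2. Over all expressed genes the median log2 ratio of (TPM + 1) was 0.077, beside 0.0 for (CPM + 1). TPM ratios thus tended to lie slightly higher than CPM ratios in general, not only in these genes.

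The other Delta-like ligands were scarce. DLL4 had 8 counts under sh-scramble and 0 under sh-HIPK2, which allows up to 3 counts (0.111 CPM). Against that limit it was 2.63-fold lower, taking the 8 counts as exact. With the counting error of the 8 counts included, the 95% interval of the ratio reached up to 0.594. DLL3 had 0 counts in both libraries. The makeup of the ligand pool was much the same in both libraries, with DLL1 at 41.3% and 41.5% of the summed ligand TPM, JAG2 at 36.9% and 38.1% and JAG1 at 21.5% and 20.4%. The summed ligand TPM was 44.5 under sh-scramble and 40.5 under sh-HIPK2. Ligand TPM over receptor TPM went from 2.60 to 1.16, while the receptor sum changed by more than the ligand sum.

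**Figure D2:**
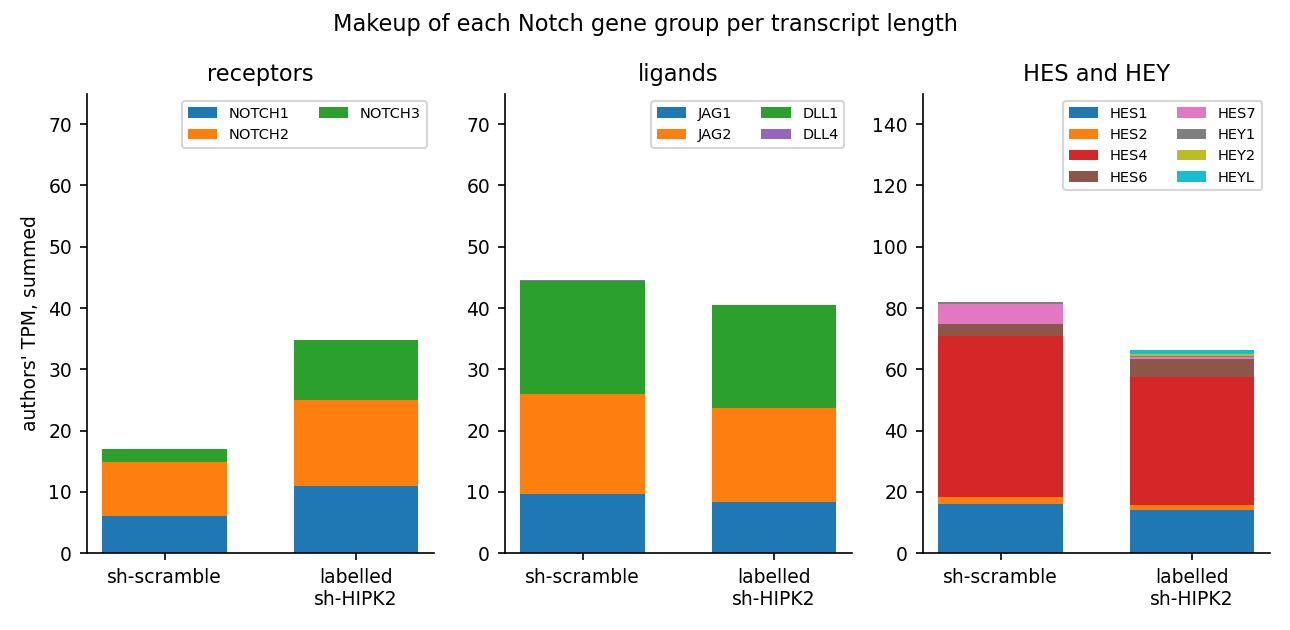
Stacked bars of the authors' TPM for the 4 receptors, the Jagged and Delta-like ligands and the HES and HEY genes in each library, leaving out genes under 0.1 TPM in both, with a taller scale in the right panel. The receptor bar is taller in the library labelled sh-HIPK2 (17.1 and 34.9), with more NOTCH3, while the ligand bars are alike (44.5 and 40.5).

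HEYL (ENSG00000163909, chromosome 1, 39624153 to 39639945, minus strand), a HEY family repressor, had 3 counts under sh-scramble and 82 under sh-HIPK2. That is 0.109 CPM (0.0226 to 0.320) against 3.03 CPM (2.41 to 3.76), a ratio of 27.7 (9.15 to 137). The interval is wide because 1 of the counts is 3. On the log2 scale of (CPM + 1), which understates ratios of low genes, HEYL was at 1.86, and 76 expressed genes were higher. Its TPM was 0.0400 and 1.24.

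HES2 (ENSG00000069812, chromosome 1, 6412418 to 6424670, minus strand), a less studied HES family member, had 105 and 43 counts. It was at 3.83 CPM (3.13 to 4.63) under sh-scramble and 1.59 CPM (1.15 to 2.14) under sh-HIPK2, 2.41-fold lower (1.67 to 3.52). With the pseudocount its log2 ratio was -0.90, just short of the 2-fold rule, and 443 expressed genes had a lower one. By TPM it was 1.48-fold lower, from 2.43 to 1.64.

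HES1 (ENSG00000114315, chromosome 3, 194136145 to 194138732, plus strand), the best known Notch target and a brake on differentiation in many tissues, had 492 and 399 counts. It was at 17.9 CPM (16.4 to 19.6) and then 14.7 CPM (13.3 to 16.3), 1.22-fold lower (1.06 to 1.39), and 1.13-fold lower by TPM. HEY1 (ENSG00000164683, chromosome 8, 79764010 to 79767863, minus strand), a HEY family repressor, had 23 and 27 counts, a ratio of 1.19 (0.657 to 2.17), so no difference was detectable at this depth. HES1 therefore lay on the other side of 1 from the 3 receptors and from HEYL.

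The full HES and HEY family shows how far its genes differ among themselves. HES4, a HES1 relative, was the most abundant per length, with 52.5 and 42.0 TPM, and was at 33.3 and 23.5 CPM, a ratio of 0.707 (0.638 to 0.783). HES7, known as a clock gene of the segmenting embryo, had 213 and 12 counts, a ratio of 0.0571 (0.0291 to 0.102) and a log2 ratio of -2.60, the single gene of the family past 2-fold lower. HEY2, the third HEY gene, had 0 counts under sh-scramble and 22 under sh-HIPK2. Against the 3 counts that a 0 allows in the sh-scramble library it was 7.43-fold higher, taking the 22 counts as exact. Their counting interval, 0.510 to 1.23 CPM around 0.813, allows a smaller difference. HES6, a relative that opposes HES1, had 87 and 131 counts, a ratio of 1.53 (1.16 to 2.03). HES3 and HES5 had 0 counts in both libraries. Of the 6 expressed genes of the 10 in this family, HEYL was past 2-fold higher and HES7 past 2-fold lower. The summed TPM of the family was 81.9 under sh-scramble and 66.2 under sh-HIPK2, a ratio of 0.808, against the ratio of 2.04 for the receptors.

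**Figure D3:**
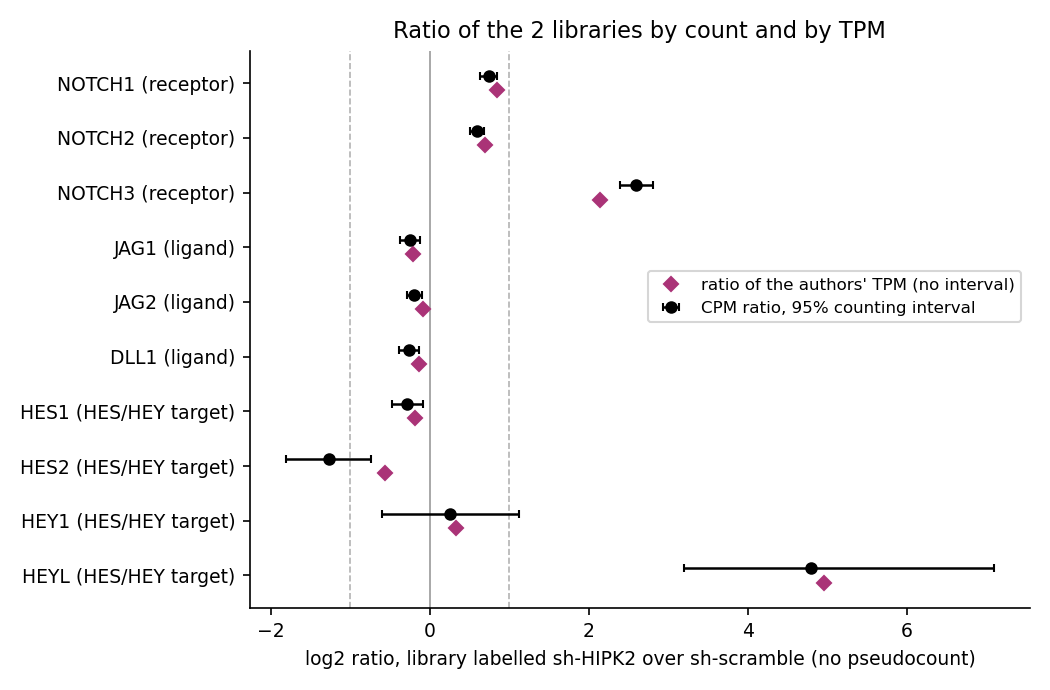
Log2 ratio of the library labelled sh-HIPK2 over sh-scramble without a pseudocount, with circles and 95% counting intervals for CPM, diamonds for the authors' TPM and dashed lines at 2-fold. NOTCH3 has a lower ratio by TPM (4.41) than by CPM (6.06), and the diamond of HES2 lies nearer 0 than its circle.

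Levels of different genes can be compared only per length, so they are ordered here by the authors' TPM, with counting intervals scaled from the counts. Under sh-scramble the order from the top was DLL1 (18.4 TPM), JAG2 (16.4), HES1 (15.9), JAG1 (9.58), NOTCH2 (8.68), NOTCH1 (6.13), HES2 (2.43), NOTCH3 (2.25), HEY1 (0.493) and HEYL (0.0400). The counting intervals of 3 neighbouring pairs overlapped under sh-scramble, JAG2 with HES1, JAG1 with NOTCH2 and HES2 with NOTCH3. In the library labelled sh-HIPK2, DLL1 (16.8), JAG2 (15.4) and HES1 (14.0) kept the top ranks. NOTCH2 (14.0), NOTCH1 (10.97) and NOTCH3 (9.90) then stood above JAG1 (8.27), and HES2 (1.64), HEYL (1.24) and HEY1 (0.618) were lowest. There each of the first 4 genes overlapped its neighbour, as did HES2 and HEYL. The receptors thus moved from below JAG1 to above it, and NOTCH3 went from rank 8 to rank 6.

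Count and TPM of a gene are linked by a transcript length, which can be read back as the count over the FPKM. For 230 genes with 1 annotated transcript and at least 500 counts in each library, 99.1% gave a length within 5% of the annotated one in both libraries. NOTCH3 had an implied length of 5238 bases under sh-scramble and 7718 bases under sh-HIPK2, 1.47 times longer. Its 6 transcripts in GENCODE 29 run from 558 to 8666 bases, and the next below the longest has 3858. Of 8670 genes with at least 2 transcripts and 100 counts in each library, 1.67% had a ratio at least as high, and 11.6% differed by over 1.2-fold either way. HES2 went the other way, from 2199 to 1450 bases, on few counts. The remaining 8 members had length ratios between 0.959 and 1.04, so their CPM and TPM tell nearly the same ratio. Which transcripts were made cannot be told from the gene totals.

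**Figure D4:**
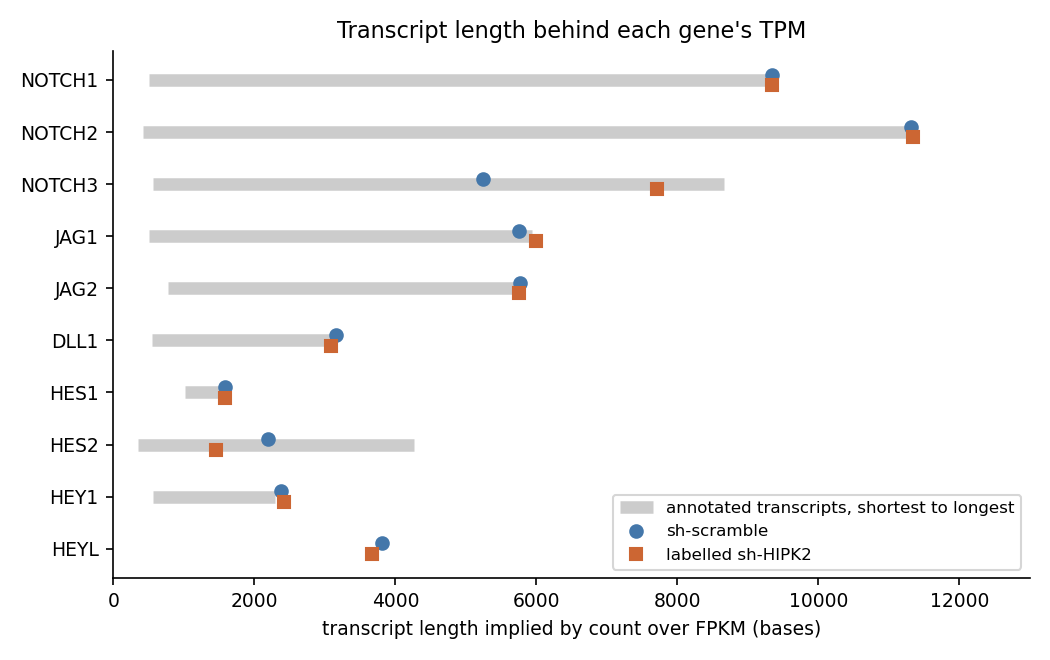
Transcript length implied by the count over the FPKM for each gene, with circles for sh-scramble and squares for the library labelled sh-HIPK2, and grey bars from the shortest to the longest annotated transcript. The symbols lie apart for NOTCH3 (5238 and 7718 bases) and HES2 (2199 and 1450 bases).

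The wider pathway was described with a list of 75 genes that includes the 10 members, of which 63 were expressed. Of these, 34 had a log2 ratio above 0 and 29 below. The rule of size called 3 higher (NOTCH3, HEYL and NEURL1B, 4.76%) and 1 lower (HES7, 1.59%), beside 3.26% and 2.87% of all expressed genes. Its expressed genes had a median of 0.023 on the log2 scale, and 49 of them stayed under 1.5-fold. As a whole the list lay close to the background, and the genes past 2-fold were few.

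NEURL1B, a ubiquitin ligase that helps ligands to be taken up by the cell that shows them, had 70 and 277 counts, 4.01 times higher (3.08 to 5.29) under sh-HIPK2. Of the 7 expressed genes of ligand ubiquitination and endocytosis it was the only gene past 2-fold. MIB1, the main ligase of this step, was at 4.56 and 8.02 CPM, 1.76 times higher (1.41 to 2.21). By TPM the 2-fold call of NEURL1B held, at a log2 ratio of 1.12.

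In the nuclear complex, RBPJ, which binds the sites marked above, had 100 and 177 counts, 1.79 times higher (1.40 to 2.32). The histone acetyltransferase EP300 was at 33.3 and 53.4 CPM, 1.61 times higher (1.48 to 1.75). Of the 6 expressed nuclear complex and coactivator genes, 5 had a ratio above 1 and 0 were past 2-fold. CREBBP, the relative of EP300, had a CPM ratio of 1.01 (0.937 to 1.09) but a log2 ratio of -1.37 by TPM, with an implied length 2.96 times longer in the library labelled sh-HIPK2. Of the 9 expressed corepressors, 6 were above 1 and 0 past 2-fold, with SPEN, which binds RBPJ, at a log2 ratio of 0.66. SNW1, a coactivator, and TLE1, a Groucho-type corepressor, lay on the other side, at log2 ratios of -0.44 and -0.29. Of all 11813 expressed genes, 5909 had a log2 ratio above 0, and with so few genes in either group nothing is read from their counts.

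Receptor processing differed little. All 8 sheddase and gamma-secretase genes were within 2-fold. The sheddase ADAM10 had a log2 ratio of 0.18. All 6 glycosylation and maturation genes differed by less than 1.5-fold, with POGLUT1 at 0.25 and the fringe gene MFNG at -0.13. Of the 9 genes of degradation and trafficking 0 were past 2-fold, with the Deltex gene DTX3 at -0.70 and the ubiquitin ligase NEDD4 at 0.43.

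The feedback inhibitor NRARP, a direct Notch target, had 519 and 758 counts, 1.48 times higher (1.32 to 1.66). CCND1, the cyclin D1 gene, went the other way, at 223.7 and 145.9 CPM, a log2 ratio of -0.61. Of the 4 expressed genes in this target group, 1 was above 1 and 3 below, and 0 were past 2-fold. The noncanonical ligands DNER and DLK2 had log2 ratios of 0.41 and -0.23. Direct targets therefore did not share a direction, with NRARP and HEYL higher and HES1, HES4 and CCND1 lower. In GENCODE 29 no other gene shares exon positions with 8 of the 10 members. JAG1, JAG2 and other pathway genes each share some with a neighbouring or antisense gene, so that reads there are uncertain. Among those named, these other genes are NEURL1B, EP300, SPEN, ADAM10, CCND1, DLK2, SNW1 and NOTCH4.

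**Figure D5:**
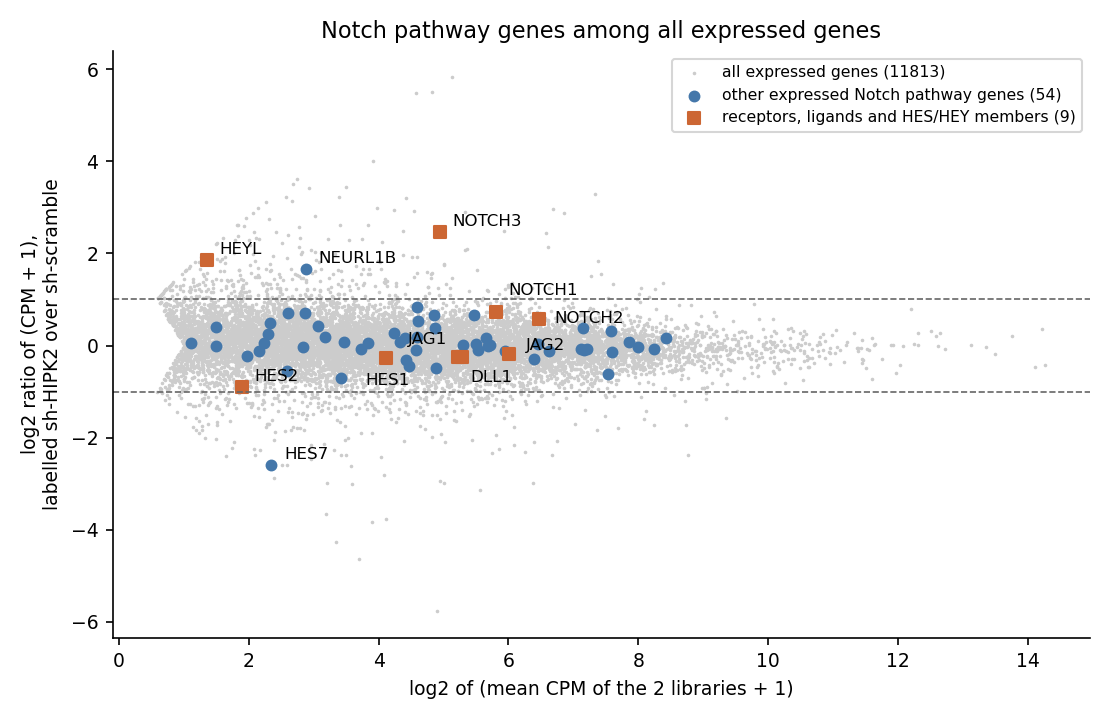
Log2 ratio of (CPM + 1) against log2 of (mean CPM + 1) for 11813 expressed genes (grey), 54 other expressed Notch pathway genes (circles) and the 9 expressed members (squares), with dashed lines at 2-fold. NOTCH3, HEYL and NEURL1B lie above the upper line, HES7 below the lower line and the remaining pathway genes between them.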

How the data were processed

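Per the submitters' processing notes, TopHat2 2.1.1 was used and the build was GRCh38 (hg38). Not given in the sources used here: the counting tool, its annotation and its use of strand. Per the file headers, the authors deposited a count, a TPM and an FPKM per gene, 1 library per file. The deposited counts are whole numbers, unscaled. In each library the deposited TPM sums to just under 1e+06, and the deposited FPKM, a constant multiple of it, was used only for implied length. Counts were scaled to CPM with TMM factors from edgeR 4.0.16 (0.977 and 1.02) in R 4.3.3. With a single library in each group there are no residual degrees of freedom, so no edgeR test was made. The log2 ratio uses a pseudocount of 1 CPM. Ratios without it carry 95% exact (Clopper-Pearson) intervals and levels exact Poisson intervals, from scipy 1.17.1. Where a count is 0, up to 3 counts are allowed for (0.109 CPM under sh-scramble, 0.111 CPM under sh-HIPK2).

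The rule of size and the intervals were tested on simulated counts that held counting error only, so spread between cultures was not covered. Genes at levels as low as those of HEY1, HEYL and HES2 were not among those scored. Members, gene lists and alternatives were chosen with earlier results of these data known. Named genes are the 10 members, pathway genes past 2-fold, the pair with the largest absolute log2 ratio in each role group, genes that can share reads with a member, and HIPK2. A few genes that this rule names are not reported here. Values of HES4, HES6, HEY2, NOTCH4, DLL3, DLL4, HES3 and HES5 were added to complete their families. DTX1 was added as the gene of its target group under 1 CPM in both libraries. Exon overlaps were read from GENCODE 29. Alternatives were other scalings (DESeq2 1.42.0 size factors among them), pseudocounts, filters, size rules, TPM and the sum of NOTCH2 with its copies.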

Additional observations from a re-analysis of the deposited data

How the results depend on the processing

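No paired analysis was possible because there is only 1 library in a group, and for the same reason no replicate could be left out. Over other scalings, pseudocounts, TPM and the summed NOTCH2 locus, none of the 10 members changed the sign of its log2 ratio. Of 61 such values, 55 moved by less than the counting interval's reach. The others were HEYL at 3.90 with a pseudocount of 0.1, NOTCH3 at 2.06 with a pseudocount of 5, NOTCH3 at 1.75, JAG2 at -0.086 and DLL1 at -0.12 in TPM, and NOTCH2 at 0.48 summed with its copies. HIPK2 reversed from 0.85 to -0.49 in TPM.

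Of the members, 2 were past 2-fold higher and 0 lower. With a pseudocount of 0.1 CPM 1 was lower (HES2). With a pseudocount of 5 CPM, a filter at 10 CPM or a 4-fold rule 1 was higher (NOTCH3), and at 1.5-fold 4 were higher and 1 lower. In the pathway list the 3 higher became 10 at 1.5-fold and 1 at 4-fold. The 1 lower became 2 with a pseudocount of 0.1 or in TPM, 0 at 10 CPM and 4 at 1.5-fold. Over all expressed genes the 385 higher and 339 lower came to 676 and 515 (pseudocount 0.1), 124 and 161 (pseudocount 5), 159 and 217 (10 CPM filter), 1254 and 1176 at 1.5-fold, and 62 and 48 at 4-fold. The list median ranged from 0.011 to 0.098, and the median over all expressed genes from -0.046 (10 CPM filter) to 0.077 (TPM). Filters and size rules move counts by construction, and beyond that the cause was not tested. Depth limits HEY1, HEYL and HES2, since a single count equals 0.0365 CPM under sh-scramble and 0.037 CPM under sh-HIPK2.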
